A study of Mus musculus with 12 samples.

Results

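The genes described here are 34 cell-cycle and replication genes of mouse embryonic stem (mES) cells, taken by gene symbol from a count table of 24421 genes and grouped by phase. The G1 regulators were 14 genes, the replication genes 10, and the G2 and mitosis genes 10. Of the 34, 33 were expressed highly enough to be tested among 11378 genes, and Cdkn2c, under 1 RPKM on average, was tested apart. RPKM is the read-pair count per kilobase of exon, scaled to the size of the library, a scale on which levels of different genes can be compared unless a gene shares much of its exons with another.

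A cell enters the cycle when D-type cyclins with CDK4 or CDK6, and E-type cyclins with CDK2, phosphorylate the RB family and release E2F factors, which switch on the genes of DNA replication. CDK inhibitors such as p27 hold these kinases back. Replication is licensed by loading the MCM helicase onto origins, and mitosis is entered with cyclin B and CDK1. mES cells are often described as having a short G1 phase and low levels of D-type cyclins and CDK inhibitors. Whether this holds for the cells used here was not tested.

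Every library came from B6 (C57BL/6J) mES cells in 2i and LIF medium that carry a Brg1 dTag knock-in, in which the FKBP12-F36V degron on BRG1, the mSWI/SNF ATPase, lets the small molecule dTAG13 send the protein to the proteasome. The knock-in came from picked colonies grown from single cells, whether the libraries hold 1 clone or more is not stated, and no untagged line was analysed here. The cells were treated for 24 h with 0 (control), 0.3, 1, 3, 10 or 100 nM dTAG13, and each of the 6 doses had 2 libraries, 12 in all, described in the study as independent experiments. The p-values therefore measure the spread between 2 libraries of a knock-in line, with the error of the spread shared over the 6 doses.

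Total counts ran from 4663484 to 6375582 per library, and the 34 genes held from 0.607% to 0.667% of them. The ribosomal RNA precursor Rn45s took from 10.5% to 19.4%. Smarca4, which encodes BRG1, stood between 63.1 and 70.8 RPKM in the 12 libraries and was highest in the 100 nM libraries, at 70.8 and 70.7 against 63.8 and 63.1 at 0 nM. The degron acts on the protein, which these data do not measure. The 8 mES cell markers summed to between 1980 and 2178 RPKM, and the 7 fibroblast markers to between 0.476 and 2.37. The 100 nM libraries had the lowest mES cell sums of the 12, 2016 and 1980, and the highest fibroblast sums, 2.37 and 1.82. Gene by gene, 5 of the 8 mES cell markers were above their 0 nM level at 100 nM and 3 below, with a median log2 fold change of 0.16. None of the 7 fibroblast markers averaged 1 RPKM, so their sums lie near the floor. The 6 primitive endoderm markers summed to between 1.22 and 2.54 RPKM and the 7 trophectoderm markers to between 26.9 and 31.8, with Cdx2 at 0.548 RPKM at 0 nM and 4.72 at 100 nM and Krt8 at 9.04 and 2.22. Of the 8 mES cell markers, 3 were higher and 3 lower at 100 nM at an adjusted p under 0.05 by edgeR. That is 75% of them beside 23.4% of all genes tested, and none differed by more than 1.5-fold. The part that these shifts have in the values of the cell-cycle genes was not tested.

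In each dose against 0 nM, a gene was called when its adjusted p was under 0.05 by the quasi-likelihood test of edgeR, with the Benjamini-Hochberg adjustment over the 11378 genes. At 100 nM, 5 of 33 cell-cycle genes were called, or 15.2%, beside 23.4% of all genes tested. Ccne2 was higher, and Cdkn1b, Ccnd3, Cdk2 and Ccnb2 were lower. Over all genes, 10.1% were higher and 13.3% lower. Of the 5, Cdkn1b also differed by more than 1.5-fold. Both thresholds were passed by 11.2% of the 11378 genes tested, which was 1274 of the 2662 genes called. At 0.3 nM no cell-cycle gene was called by edgeR, 0.0703% of all genes were, and 3 of the 33 had an unadjusted p under 0.05. At 1 nM again none was called, beside 2.29% of all genes, and 3 had an unadjusted p under 0.05. DESeq2's Wald test also called 0 at both doses. At 3 nM, 3 of 33 were called, or 9.09% beside 9.4% of all genes, and at 10 nM again 3, or 9.09% beside 17.9%. With the 1.5-fold minimum these became Cdkn1b at 3 nM, beside 3.9% of all genes, and Ccne2 at 10 nM, beside 7.93%. In all, 6 of the 34 genes were called at 1 or more doses and 28 at none. The share of all genes called at 1 or more doses was not computed, and 100 nM alone called 23.4% of them.

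The count at 100 nM moved with the scaling. Library sizes were set by edgeR's trimmed mean of M-values (TMM) over the tested genes. With TMM over all genes before the filter, a choice added after seeing the data, 11 of 33 were called, 1 higher and 10 lower, and Gmnn, Cdc6, Plk1, Aurka, Ccnb1 and Top2a were among the 10. That scaling put the median of all tested genes at -0.08 on the log2 scale. Its calls over all 11378 genes were 802 higher and 2174 lower, of which 26.9% were higher. With TMM over the tested genes they were 1151 higher and 1511 lower, or 43.2% higher. With no normalization factors 4 of 33 were called, and of 11381 genes 1157 were higher and 1019 lower, or 53.2% higher. With no filter on low values, 12 of 34 were called. Of 23204 genes, 1172 were then higher and 2215 lower, so 34.6% of all calls were higher. That fit set its TMM factors over all genes with a count, and the median of the tested genes was again -0.08. It is therefore nearly the same scaling as TMM over all genes and not a separate check. Cdkn1b, Ccnd3, Ccne2 and Ccnb2 were called under each of the 9 alternatives to the fit that kept all libraries of 0 and 100 nM.

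**Figure D1:**
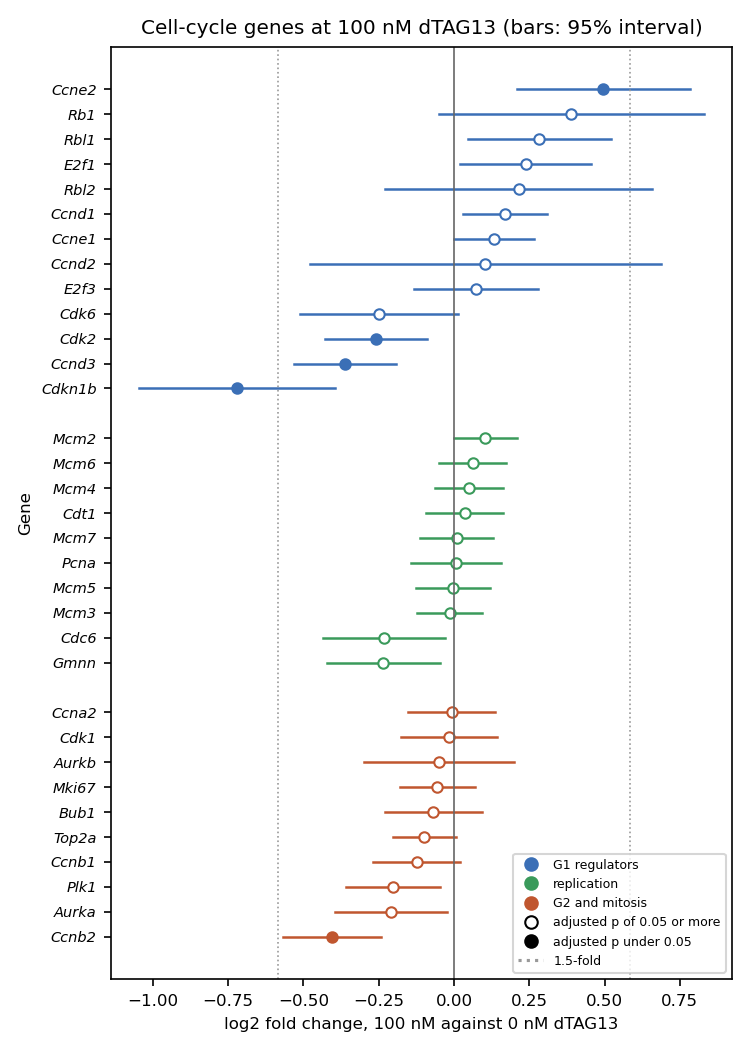
Log2 fold change of the 33 tested cell-cycle genes at 100 nM against 0 nM dTAG13 (x axis), 1 gene per line, coloured by phase, with 95% intervals as bars, filled points for an adjusted p under 0.05 and dotted lines at 1.5-fold. Cdkn1b (-0.72) and Ccne2 (0.50) lie farthest out, the MCM genes and Pcna lie close to 0, and the 10 G2 and mitosis genes lie between -0.41 and -0.01.

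The upstream sequences of 4 of the 5 called genes are shown because the genes were called at the same dose and carry different sets of cell-cycle promoter motifs. Each is the 250 bases before the gene's start in RefSeq on GRCm38.p6, the build also known as mm10, read 5′ to 3′ on the gene's strand. Capitals mark an E2F core (searched as TTGGCGC, as TTCCCGC, as TTCGCGC and as TTGCCGC), a cell-cycle homology region (CHR, TTTGAA) or a CCAAT box (CCAAT), each searched on both strands, and motifs on the opposite strand appear as their reverse complement. The windows are chr6:134920151-134920400 on the plus strand for Cdkn1b, chr17:47504801-47505050 on the plus strand for Ccnd3, chr10:128705052-128705301 on the minus strand for Cdk2 and chr9:70421555-70421804 on the minus strand for Ccnb2.
Cdkn1b: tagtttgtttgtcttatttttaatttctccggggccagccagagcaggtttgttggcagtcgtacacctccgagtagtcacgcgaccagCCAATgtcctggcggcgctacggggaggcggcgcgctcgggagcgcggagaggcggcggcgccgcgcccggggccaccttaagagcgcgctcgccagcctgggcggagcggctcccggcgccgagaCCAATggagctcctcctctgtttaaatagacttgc
Ccnd3: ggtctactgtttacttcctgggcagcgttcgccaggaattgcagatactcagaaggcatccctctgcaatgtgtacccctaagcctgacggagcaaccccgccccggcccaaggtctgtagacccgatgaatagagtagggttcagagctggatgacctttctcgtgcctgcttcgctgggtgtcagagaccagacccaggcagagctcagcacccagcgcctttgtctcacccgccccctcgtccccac
Cdk2: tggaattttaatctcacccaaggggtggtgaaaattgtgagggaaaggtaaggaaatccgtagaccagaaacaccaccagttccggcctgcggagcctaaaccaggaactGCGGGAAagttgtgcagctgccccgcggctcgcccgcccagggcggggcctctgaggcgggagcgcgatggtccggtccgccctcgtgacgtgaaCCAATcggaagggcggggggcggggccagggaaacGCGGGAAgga
Ccnb2: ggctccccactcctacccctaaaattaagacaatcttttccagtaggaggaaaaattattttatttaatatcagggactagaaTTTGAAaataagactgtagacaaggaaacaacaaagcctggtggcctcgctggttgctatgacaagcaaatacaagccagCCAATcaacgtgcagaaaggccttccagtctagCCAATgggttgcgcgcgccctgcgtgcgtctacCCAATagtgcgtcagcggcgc

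The window of Cdkn1b held 2 CCAAT boxes and that of Ccnd3 none of the motifs. Cdk2 had 2 E2F cores, both on the opposite strand, and 1 CCAAT box, and Ccnb2 had 1 CHR and 3 CCAAT boxes. The sequence table held an entry for 26 of the 34 genes, and Mcm4, Ccne2, Ccnd2, Rb1, Ccnd1, Ccna2, Aurkb and Gmnn had none. An E2F core stood in 42.3% of the 26 windows (11) and in 7.89% of the 32851 windows of the same length in the table. A CCAAT box stood in 65.4% of the 26 and 33.8% of all, and a CHR in 26.9% of the 26 and 5252 of the 32851. The 26 windows were 1 per gene. The 32851 were all windows in the table, not limited to 1 per gene or to the genes tested here. The sets are therefore not alike, and the differences between their shares were not tested. By phase, the CCAAT box was in 8 of 8 G2 and mitosis genes, 6 of 8 replication genes and 3 of 10 G1 regulators. The E2F core was in 3 of 8, 4 of 8 and 4 of 10 of these, and the CHR in 4 of 8, 1 of 8 and 2 of 10. A match of letters is a description of the sequence and not evidence of a bound factor.

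Among the G1 regulators, the inhibitor gene fell. Cdkn1b, which encodes p27, the inhibitor of cyclin E and CDK2, lies on chromosome 6 from 134920401 to 134925525. It gave, in RPKM, 8.65 and 10.0 (0 nM), 7.72 and 8.84 (0.3 nM), 7.37 and 7.15 (1 nM), 5.95 and 5.95 (3 nM), 6.35 and 6.35 (10 nM), and 5.13 and 6.21 (100 nM). Each library at 1 nM or more lay below both 0 nM libraries, and the levels at 3, 10 and 100 nM were close to one another. Against the control, Cdkn1b differed on the log2 scale by -0.65 with 3 nM (standard error, SE, 0.16, adjusted p = 0.00955 by edgeR), -0.56 at 10 nM (adjusted p = 0.0131) and -0.72 at 100 nM (SE 0.16, adjusted p = 0.00125). At 1 nM it was -0.36 (adjusted p = 0.272), and at 0.3 nM -0.17 (adjusted p = 0.862). From 10 to 100 nM the difference was -0.16, with a 95% interval from -0.51 to 0.18. The gene had 71 to 149 counts per library. With DESeq2's Wald test the calls at 3 and 10 nM were lost (adjusted p = 0.0619 and 0.0843). The call at 100 nM held with each library of either group left out, with an adjusted p of at most 0.038 by edgeR. Of 4 fits that left out a library, 1 kept the call at 3 nM and 1 that at 10 nM. The call at 3 nM was lost without 0 nM replicate 2 and without either 3 nM library, and that at 10 nM without 0 nM replicate 2, where the log2 fold change was -0.45, and without either 10 nM library.

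Cdkn2c, which encodes p18, an inhibitor of CDK4 and CDK6, had 1 to 10 counts per library. Its log2 fold change at 100 nM was 0.25 with a SE of 0.87 in the fit without the filter (adjusted p = 0.906 by edgeR), so no difference was detectable at this depth.

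Of the D-type cyclins, which activate CDK4 and CDK6, 1 fell, and only at the highest dose. Ccnd3, on chromosome 17 from 47505051 to 47599688, was the most abundant of them. It gave, in RPKM, 62.1 and 67.4 (0 nM), 70.8 and 71.5 (0.3 nM), 71.8 and 68.6 (1 nM), 75.4 and 65.3 (3 nM), 61.8 and 71.4 (10 nM), and 50.1 and 50.6 (100 nM). Both 100 nM libraries lay below all 10 others, and the lower doses overlapped the control or lay above it. The fall at 100 nM was -0.36 on the log2 scale (SE 0.081, adjusted p = 0.00159 by edgeR), which is a difference of -22.2% with a 95% interval from -30.7% to -12.6%. At 10 nM the log2 fold change was 0.04, with an interval from -0.12 to 0.21 (adjusted p = 0.792).

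The comparison of 100 nM with 10 nM was added after the values were seen. Ccnd3 was lower at 100 nM by a log2 fold change of -0.40 (SE 0.081, adjusted p = 0.00484 by edgeR) and was the only cell-cycle gene called there, 3.03% of 33 beside 2.37% of all genes. With the 1.5-fold minimum it was not called, beside 0.984% of all genes. That call was lost without 10 nM replicate 2 or either 100 nM library, with an adjusted p of up to 0.148. The call against 0 nM held in all 4 fits that left out a library of 0 or 100 nM, with an adjusted p of at most 0.0435. The exons of Ccnd3 share 358 bases with those of the neighbouring Bysl, and read pairs there were counted without strand and assigned to neither gene. Bysl itself stood at 17.9 RPKM at 0 nM and 17.7 at 100 nM.

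Ccnd1, the cyclin D gene best known as a target of growth-factor signalling, gave, in RPKM, 40.7 and 42.6 (0 nM), 46.1 and 43.1 (0.3 nM), 40.3 and 40.2 (1 nM), 39.9 and 39.8 (3 nM), 44.1 and 43.6 (10 nM), and 48.5 and 45.1 (100 nM). Both 100 nM libraries lay above both controls, but 1 of the 0.3 nM libraries lay between them. The log2 fold change at 100 nM was 0.17 (SE 0.067) and missed the threshold (adjusted p = 0.0718 by edgeR). Ccnd2 was near the limit of the filter, with 30 to 58 counts per library. It stood at 1.42 and 1.06 RPKM at 0 nM and 1.65 and 1.01 at 100 nM, and between 0.859 and 1.61 at the other doses, and its interval at 100 nM ran from -28.2% to 61.0%.

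Summed over the 3 D-type cyclins, levels were 108 ± 4.85 RPKM (SD, n = 2) in the control, 117 ± 1.70 with 0.3 nM, 112 ± 2.69 with 1 nM, 111 ± 7.28 with 3 nM, 112 ± 6.82 with 10 nM and 98.5 ± 2.49 with 100 nM. The sum at 100 nM was -8.43% from the control, with no overlap between the 2 groups of libraries, and -13.5% under TMM over all genes. Within the sum, the share of Ccnd3 was 60.1% ± 0.743 at 0 nM, between 59.5% and 63.1% at the doses up to 10 nM, and 51.2% ± 1.66 at 100 nM. The share of Ccnd1 was 38.7% ± 0.458 at 0 nM and 47.5% ± 1.24 at 100 nM. These shares do not depend on the scaling of the libraries, and no test was run on them. The RPKM of Ccnd3 was divided by all 2260 exon bases, though pairs on the 358 shared with Bysl were not counted. Its level, its share and the D-type sum are therefore understated by an amount that was not measured.

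**Figure D2:**
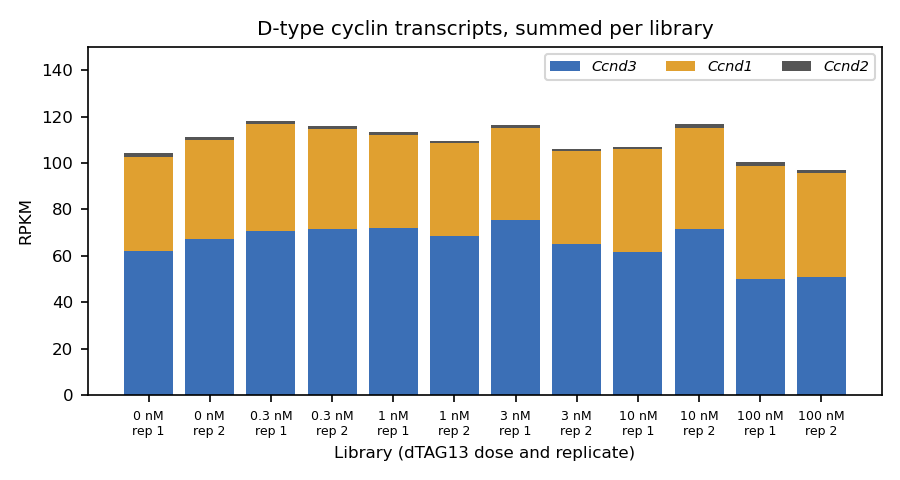
RPKM of Ccnd3, Ccnd1 and Ccnd2 (y axis), stacked, in each of the 12 libraries in order of dTAG13 dose (x axis). The Ccnd3 part of the bar is between 61.8 and 75.4 RPKM up to 10 nM and 50.1 and 50.6 in the 100 nM libraries, while the Ccnd1 part is 48.5 and 45.1 there.

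The E-type cyclins activate CDK2. Ccne1 made up most of their transcripts, at 132 and 141 RPKM at 0 nM and 148 and 151 at 100 nM, and its log2 fold change at 100 nM was 0.13 (adjusted p = 0.143 by edgeR). Ccne2, on chromosome 4 from 11191351 to 11204779, gave, in RPKM, 7.52 and 9.89 (0 nM), 8.10 and 10.3 (0.3 nM), 8.93 and 9.75 (1 nM), 10.7 and 9.54 (3 nM), 12.2 and 14.3 (10 nM), and 12.8 and 11.8 (100 nM). The 4 libraries at 10 and 100 nM lay above all 8 others.

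Ccne2 rose by a log2 fold change of 0.60 at 10 nM (SE 0.14, adjusted p = 0.00274 by edgeR) and 0.50 at 100 nM (SE 0.14, adjusted p = 0.00993). The rise at 100 nM rested on the lower control: without 0 nM replicate 1 it was 0.31 (adjusted p = 0.194), and without 100 nM replicate 1 it was 0.44 (adjusted p = 0.0994). At 10 nM the call was also lost in 2 of 4 such fits, with an adjusted p of up to 0.0968. The E-type sum went from 145 ± 8.54 RPKM at 0 nM (SD, n = 2) to 162 ± 1.24 at 100 nM, with Ccne2 going from 5.97% to 7.59% of it. The exons of Ccne2 share 1734 bases with those of Ints8, so a part of its transcript was not counted, while its RPKM was divided by all 3220 exon bases. Its level, and its share of the E-type sum, are therefore understated by an amount that was not measured, and comparing its level with that of other genes is uncertain. Ints8 stood at 13.4 RPKM at 0 nM and 11.7 at 100 nM (log2 fold change -0.20, adjusted p = 0.208).

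Of the kinases, Cdk2, the partner of the E- and A-type cyclins, gave, in RPKM, 37.3 and 40.3 (0 nM), 35.2 and 35.3 (0.3 nM), 39.1 and 38.9 (1 nM), 40.4 and 38.6 (3 nM), 36.9 and 41.6 (10 nM), and 32.9 and 32.0 (100 nM). The 100 nM libraries were the lowest of the 12. Cdk2 fell by 0.26 on the log2 scale at 100 nM (SE 0.082, adjusted p = 0.0237 by edgeR). This call stood in 1 of 4 fits that left out a library. It was lost without 0 nM replicate 2 (adjusted p = 0.201) or either 100 nM library (0.0772 and 0.138), with no normalization factors (0.187) and with DESeq2 (0.0871). Cdk6, the partner of the D-type cyclins, stood at 20.2 and 15.9 RPKM at 0 nM and 15.1 and 15.2 at 100 nM, and the log2 fold change was -0.25 and did not pass (adjusted p = 0.17).

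The RB family genes and the E2F genes were not called at 100 nM, where 23.4% of all genes were. Rb1 had a log2 fold change of 0.39 with an interval from -0.05 to 0.83, and Rbl2, the gene of p130, 0.21 with an interval from -0.23 to 0.66. Both stood between 1.92 and 3.23 RPKM in all 12 libraries, and the exons of Rbl2 share 418 bases with those of Aktip. Rbl1, the gene of p107, gave, in RPKM, 5.76 and 5.52 (0 nM), 5.95 and 6.50 (0.3 nM), 6.23 and 6.26 (1 nM), 6.70 and 7.80 (3 nM), 6.40 and 6.97 (10 nM), and 6.74 and 6.99 (100 nM). All 10 treated libraries lay above both controls.

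Rbl1 was called at 3 nM (log2 fold change 0.37, adjusted p = 0.0474 by edgeR) and not at 10 nM (0.24, adjusted p = 0.163) or 100 nM (0.28, adjusted p = 0.0777). The call at 3 nM was kept by 3 of 8 alternatives and by 1 of 4 fits that left out a library, with an adjusted p of up to 0.396. E2f1, which activates replication genes, was at 13.9 ± 1.02 RPKM at 0 nM (SD, n = 2) and 16.4 ± 1.56 at 100 nM, and the log2 fold change was 0.24 (adjusted p = 0.108). E2f3, of the same class, was at 8.65 ± 0.262 and 9.10 ± 0.621, and the log2 fold change was 0.07 (adjusted p = 0.656).

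**Figure D3:**
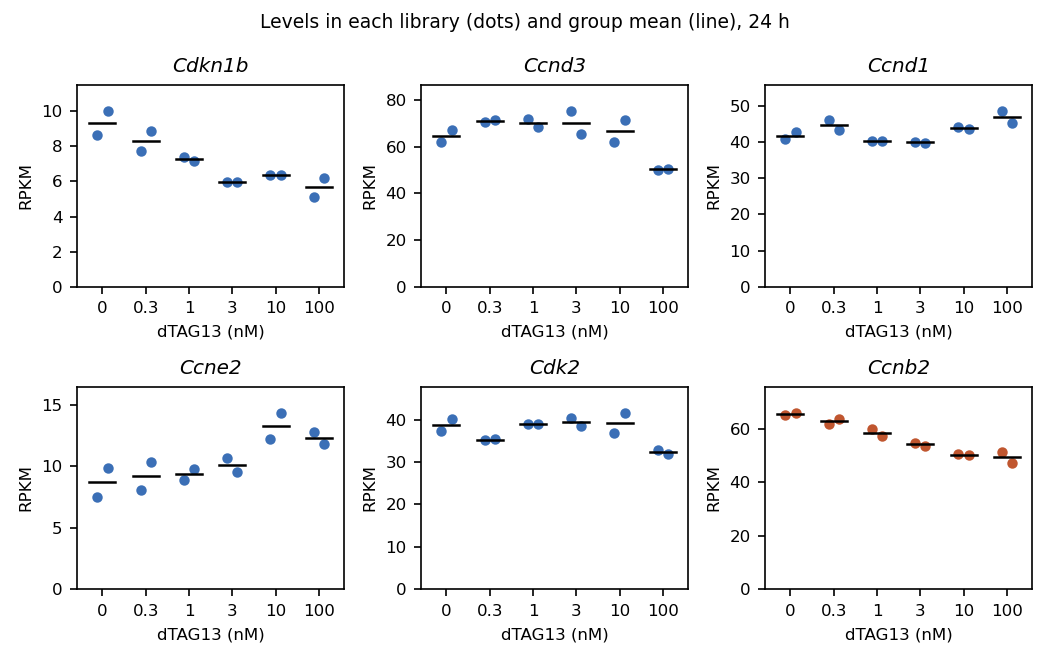
RPKM (y axis, from 0) of 6 cell-cycle genes against dTAG13 dose in nM (x axis, ordered and not to scale), with a dot for each library and a line for the mean of the 2. Cdkn1b and Ccnb2 were called lower from 3 nM, Ccne2 higher from 10 nM, and Ccnd3 and Cdk2 lower at 100 nM, where Ccnd1 stands at 48.5 and 45.1 RPKM. All treated libraries of Ccnb2, and those of Cdkn1b from 1 nM, already lie below both controls.

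The 10 replication genes were not called at any dose, beside 0.0703% of all genes at 0.3 nM and up to 23.4% at 100 nM. Of 43 other replication genes, described below, 25.6% were called at 100 nM. The 6 subunits of the MCM2-7 helicase were among the most abundant of the 34 genes, with means from 96.1 RPKM for Mcm4 to 184 for Mcm2 at 0 nM. At 100 nM the log2 fold changes were 0.10 for Mcm2, -0.01 for Mcm3, 0.05 for Mcm4, -0.00 for Mcm5, 0.06 for Mcm6 and 0.01 for Mcm7. The 95% intervals of the 6 together spanned from -8.40% for Mcm5 to 15.6% for Mcm2, and no interval reached beyond these bounds. Mcm2 stood at 187 and 180 RPKM at 0 nM and at 205 and 205 at 1 nM, and its log2 fold change there was 0.16 (adjusted p = 0.113 by edgeR).

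Pcna, the sliding clamp of the replication polymerases, had a log2 fold change of 0.01 at 100 nM with an interval from -9.46% to 11.5%. Cdt1, which loads the helicase together with CDC6, had 0.04, with an interval from -6.14% to 11.9%. Gmnn, which encodes geminin, the inhibitor of CDT1, stood at 66.5 and 62.7 RPKM in the control, 54.8 and 58.8 with 10 nM and 53.2 and 56.5 with 100 nM. Its 10 and 100 nM libraries lay below the other 8, with a log2 fold change at 100 nM of -0.24 (adjusted p = 0.0629 by edgeR). Cdc6 stood at 17.2 and 14.6 RPKM at 0 nM and 14.3 and 12.8 at 100 nM, and its log2 fold change was -0.23 (adjusted p = 0.0888). Both were called under TMM over all genes and with no filter on low values, settings that scaled the libraries nearly alike. Without 0 nM replicate 2, Cdc6 was called at a log2 fold change of -0.35.

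The G2 and mitosis genes included 1 called gene at 100 nM, or 10% of 10 beside 23.4% of all genes. Ccnb2, which encodes cyclin B2, a partner of CDK1, lies on chromosome 9 from 70407689 to 70421554. It gave, in RPKM, 65.0 and 65.8 (0 nM), 61.7 and 63.6 (0.3 nM), 59.6 and 57.1 (1 nM), 54.5 and 53.5 (3 nM), 50.5 and 50.0 (10 nM), and 51.3 and 47.3 (100 nM). All 10 treated libraries lay below both controls, and each dose up to 10 nM lay below the dose before it without overlap.

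Ccnb2 fell by 0.27 on the log2 scale at 3 nM (adjusted p = 0.0269 by edgeR), by 0.38 at 10 nM (adjusted p = 0.00111) and by 0.41 at 100 nM (SE 0.079, adjusted p = 0.000357). The last is a difference of -24.6%, with an interval from -32.6% to -15.5%, which does not reach 1.5-fold. At 1 nM the log2 fold change was -0.16 (adjusted p = 0.36). Of the alternatives that kept all libraries of the 2 doses, 5 of 8 kept the call at 3 nM. The calls at 10 and 100 nM held in all 4 fits that left out a library, and the call at 3 nM in 0 of 4, with an adjusted p of up to 0.138. Between 10 and 100 nM the difference was -0.03, with an interval from -0.19 to 0.14.

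The other 9 genes of G2 and mitosis were not called at 100 nM. Ccnb1, the other B-type cyclin, stood at 82.5 and 82.8 RPKM at 0 nM and 78.9 and 72.8 at 100 nM, and the log2 fold change was -0.12 (adjusted p = 0.221). Cdk1, the mitotic kinase, had -0.02 with an interval from -11.5% to 10.4%, and Ccna2, the A-type cyclin of S and G2 phases, -0.01 with an interval from -9.94% to 9.98%. The exons of Ccna2 share 378 bases with those of Exosc9. Plk1, a kinase of mitotic entry and the spindle, gave, in RPKM, 49.8 and 49.1 (0 nM), 54.4 and 54.9 (0.3 nM), 49.1 and 49.5 (1 nM), 46.7 and 43.3 (3 nM), 44.6 and 44.9 (10 nM), and 41.5 and 44.5 (100 nM). Its 6 libraries at 3 nM or more lay below the other 6.

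Plk1 had a log2 fold change of -0.20 at 100 nM (adjusted p = 0.0547 by edgeR), and Aurka, the centrosomal Aurora kinase, -0.21 (adjusted p = 0.0952). Both were called in a fit of the 0 and 100 nM libraries alone, with an adjusted p of 0.0477 for Plk1 and 0.04 for Aurka by edgeR. They were also called under TMM over all genes and with no filter on low values, settings that scaled the libraries nearly alike. Aurkb, the Aurora kinase of the chromosomal passenger complex, had -0.05, and Bub1, a spindle checkpoint kinase, -0.07. Mki67, which encodes the proliferation antigen Ki-67, had -0.06 with an interval from -11.7% to 4.85%. Top2a, the topoisomerase that untangles sister chromatids, had -0.10 with an interval from -13.2% to 0.565%.

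Numbers in the labels go from 1 to 8 over the 0, 1, 10 and 100 nM samples and from 3 to 6 over the 0.3 and 3 nM samples. In each set the lower numbers were those of replicate 1 and the higher those of replicate 2. What these numbers mark is not stated. The comparison of 3 with 0.3 nM, inside the latter set, called 1 of 33 genes, or 3.03%, beside 5.31% of all genes, and none with the 1.5-fold minimum, beside 1.94%. The gene was Plk1, lower at 3 nM by a log2 fold change of -0.28 (SE 0.076, adjusted p = 0.0265 by edgeR). Of the alternatives that kept all libraries of the 2 doses, 5 of 8 kept this call. That call was lost without either 0.3 nM library and without 3 nM replicate 2, with an adjusted p of up to 0.225. Cdkn1b had -0.48 in this comparison (adjusted p = 0.097) and Ccnb2 -0.21 (adjusted p = 0.129). A fit of only the 8 libraries of 0, 1, 10 and 100 nM called 0 of the cell-cycle genes at 1 nM, 3 at 10 nM and 5 at 100 nM.

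By phase, the median log2 fold change at 100 nM was 0.13 for the 13 tested G1 regulators, 0.01 for the replication genes and -0.08 for the G2 and mitosis genes, beside 0.00 for all genes tested. All 10 G2 and mitosis genes lay below 0, from -0.41 to -0.01, against 5684 of the 11378 genes tested. Of the G1 regulators 9 lay above 0 and 4 below. Under TMM over all genes these medians were 0.052, -0.074 and -0.16, where the median of all genes was itself -0.08, and with no normalization factors they were 0.18, 0.055 and -0.035 beside 0.047. The G1 regulators stood above the median of all genes and the G2 and mitosis genes below it. A change of scaling moves all genes by about the same amount, so the 3 scalings could not have changed this order. It is a description of lists that no test was run on.

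**Figure D4:**
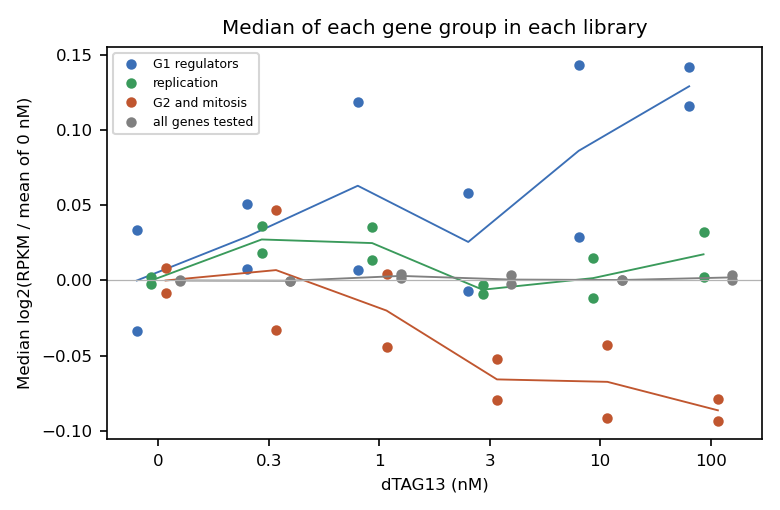
Median over the genes of each phase, and over all genes tested, of log2(RPKM over the mean RPKM at 0 nM) (y axis) in each library (dots) against dTAG13 dose in nM (x axis, not to scale), with lines through the mean of the 2 libraries. The G2 and mitosis medians of the 100 nM libraries are -0.09 and -0.08, the G1 medians 0.14 and 0.12, and the replication medians 0.03 and 0.00.

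Other genes of the cell cycle were listed by the same phases, 106 in all, of which 104 were tested. At 100 nM 25 of them were called, or 24.0%, beside 23.4% of all genes, with 9 higher and 16 lower. Of the 21 other G1 regulators tested, Cdkn1a, the gene of the CDK inhibitor p21, was higher (log2 fold change 0.39, adjusted p = 0.00138 by edgeR). E2f8, an atypical E2F that represses, was lower (-0.50, adjusted p = 0.000138 by edgeR). These were the only calls of that list, or 9.52% beside 23.4% of all genes. The inhibitor genes Cdkn1a and Cdkn1b were thus called in opposite directions at this dose.

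Of the 43 other replication genes, 6 were higher and 5 lower, or 25.6% called beside 23.4% of all genes. The largest rises were those of Pold2 (0.79) and Pold1 (0.46), subunits of DNA polymerase delta, and the largest falls those of Rpa3 (-0.62), a subunit of the single-strand binding protein RPA, and Rrm2 (-0.47), a subunit of ribonucleotide reductase. Of the 40 other G2 and mitosis genes tested, 2 were higher and 10 lower, or 30% called beside 23.4% of all genes. Over all genes, 10.1% were higher and 13.3% lower. Mybl2 (0.31), the B-MYB factor that activates mitotic genes, and Cdc20 (0.29), an activator of the anaphase-promoting complex, were higher. Pttg1 (-0.55), which encodes securin, and Ckap2 (-0.50), a spindle protein, were the largest falls. All 8 of these had an adjusted p of at most 0.0468 by edgeR, and the exons of Pold2 and Cdc20 share 69 and 52 bases with those of Aebp1 and Elovl1. In bulk libraries, fewer cells in a phase and less RNA per cell cannot be told apart.

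**Figure D5:**
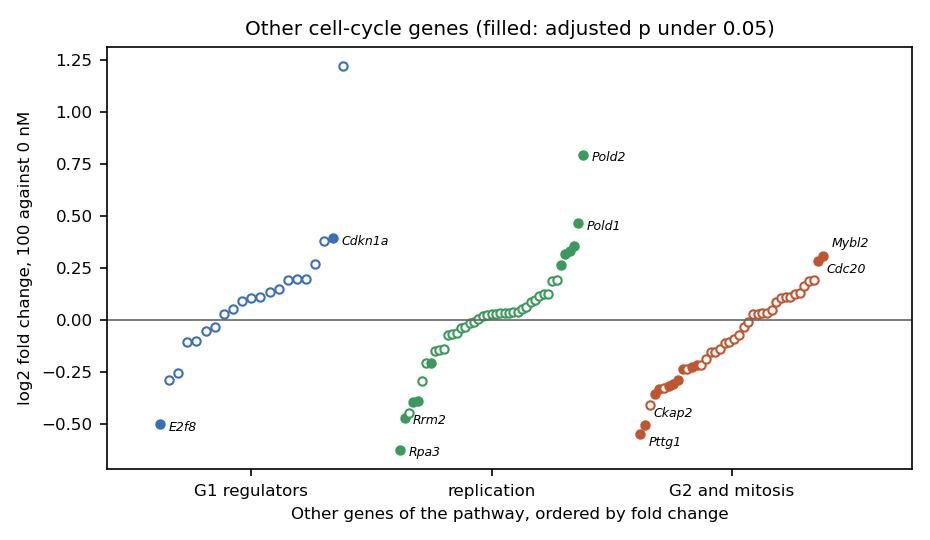
Log2 fold change at 100 nM against 0 nM (y axis) of the other cell-cycle genes tested, ordered by value within each phase (x axis), filled where the adjusted p was under 0.05. The called genes run from -0.62 for Rpa3 to 0.79 for Pold2. Of the 12 called G2 and mitosis genes, 10 lie below 0, as did 1511 of the 2662 called over all genes.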

How the data were processed

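RNA from mES cells was made into libraries with the SMART-Seq Stranded Kit. The authors deposited raw counts of read pairs per gene symbol, made with Trim Galore, HISAT2 and featureCounts (v2.0.1) on mm10 exons, with no normalization. Per the file headers, both ends had to align and strand was not used, so pairs on exons shared by 2 genes were assigned to neither. The 12 libraries held 4663484 to 6375582 counts.

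Conditions came from the sample labels. R 4.3.3 with edgeR 4.0.16 was used for the TMM factors, RPKM and the quasi-likelihood test. The 11378 genes averaging 1 RPKM or more were tested with the 6 doses in 1 fit, and the threshold was a Benjamini-Hochberg adjusted p under 0.05. Cdkn2c was tested in a fit of the 23204 genes with a count. The study's methods name the likelihood ratio test and a 1.5-fold minimum, and both were alternatives, beside DESeq2 1.42.0, other scalings, no filter, pairwise fits, a replicate block and each library left out. The steps were tested on simulated counts.

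The members and gene lists were chosen with earlier results of these data known. All 34 genes were named, with values per library for those called at 100 nM and the D-type cyclins, and for Rbl1, Plk1, Ccne1, Cdk6, Gmnn, Cdc6, Ccnb1 and Mcm2, which were chosen after their values were seen. Of the other cell-cycle genes, the 2 largest called rises and falls of each list were named. Promoter windows and motif counts used python 3.11.15.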

Additional observations from a re-analysis of the deposited data

How the results depend on the processing

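The number of cell-cycle genes called was 3 at 3 nM, 3 at 10 nM, 5 at 100 nM, 1 for 3 against 0.3 nM and 1 for 100 against 10 nM. With DESeq2's Wald test it was 0 at 3 nM, beside 282 higher and 373 lower of 10495 genes, and 0 for 3 against 0.3 nM. That test called 1 gene higher and 1 lower at 10 nM, and 1 higher and 3 lower at 100 nM. With no normalization factors the number was 1 at 3 nM, 0 for 3 against 0.3 nM and 0 for 100 against 10 nM. With no filter on low values the number was 12 at 100 nM. It was 2 in each of the comparisons of 3 with 0.3 nM and 100 with 10 nM. With TMM over all genes, added after seeing the data, it was 11, 2 and 2. Over all 23204 genes, no filter gave 1172 higher and 2215 lower, 256 and 592, and 64 and 326, in that order. Over 11378 genes, TMM over all genes gave 802 and 2174, 206 and 523, and 47 and 276. Pairwise fits gave 1 at 3 nM, 3 at 10 nM, 0 for 3 against 0.3 nM, and 7 at 100 nM, where Plk1 and Aurka joined the 5. Beside these 7, 1299 of 11478 genes were higher and 1704 lower. A 1.5-fold minimum left 1 at 3, 10 and 100 nM, 0 for 3 against 0.3 nM and 0 for 100 against 10 nM. With 1 library left out the counts ran from 0 to 1 at 3 nM, 1 to 3 at 10 nM, 3 to 5 at 100 nM, 0 to 1 for 3 against 0.3 nM and 0 to 2 for 100 against 10 nM. The count at 10 nM was 1 without 10 nM replicate 2, and that at 100 nM was 3 without 100 nM replicate 1. The medians at 100 nM of the G1, replication and G2 and mitosis genes were 0.052, -0.074 and -0.16 with no filter and with TMM over all genes, and 0.18, 0.055 and -0.035 with no normalization factors. With 1 library left out they ran from 0.12 to 0.14, 0.0028 to 0.036 and -0.13 to -0.076. The difference in the D-type cyclin sum was -13.5% with no filter and with TMM over all genes, and -11.3% to -5.59% with 1 library left out. With no filter, the TMM factors were also set over all genes with a count, so this alternative and TMM over all genes share nearly the same scaling. The causes of these shifts were not tested. Leaving out a library leaves 1 in its group, which is assumed to vary like the others. No called gene changed direction under any alternative. No pairing of the libraries by replicate number was detected: over 15 pairs of doses the differences between replicates correlated from -0.11 to 0.074, none over 0.1. Whether libraries of the same replicate number were handled together is not stated. With the replicate block the counts were again 3, 3, 5, 1 and 1. At these depths, genes with under 100 counts, such as Ccnd2, Rb1 and Rbl2, were measured with wide intervals.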
